A study of Mus musculus with 4 samples.

Results

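The integrated stress response is described here through 10 genes: the transcription factors Atf4, Atf5, Ddit3 and Cebpb, their feedback genes Trib3 and Ppp1r15a, and the stress-induced effectors Chac1, Asns, Ddit4 and Sesn2. They were taken as every probe set of the array whose single annotated gene symbol is one of these names, which gave 17 probe sets for 10 genes, among 18194 genes with such a probe set in the whole table. Each of the 10 names was found in the annotation as written, and 4 genes have 1 probe set while 6 have more. Testes of strain 129 mice, removed at 2 days post partum (2 dpp), were held in organ culture for 24 h and their RNA was read on Affymetrix Mouse Genome 430 2.0 arrays. Of the 4 arrays, 2 come from testes given only the vehicle, dimethyl sulfoxide (control), and 2 from testes given WIN 18,446 at 1 µM, a known inhibitor of the enzymes that oxidise retinaldehyde to retinoic acid. All 4 cultures stood in medium with 10% fetal bovine serum. The labels number the samples without saying that they came from different animals or cultures, nor whether testes were pooled, so every p-value measures the spread between these arrays only, which may be technical, and 2 arrays per group limit the precision.

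In the integrated stress response, kinases that sense amino acid shortage, unfolded protein, heme shortage or double-stranded RNA phosphorylate the translation factor eIF2. General protein synthesis then falls, while the messenger RNAs of Atf4 and Atf5 are translated better than before. Atf4 enters the nucleus, pairs with C/EBP factors and turns on genes of amino acid synthesis and transport, along with Ddit3 (also called CHOP), Trib3 and Chac1. Much of the control of Atf4 and Atf5 acts on translation, which an array of RNA levels does not measure.

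Atf4 and its C/EBP partners are known to bind a composite element at their target genes, so the promoters were searched for it, together with the cAMP response element that ATF factors also bind. Promoters were the RefSeq windows of build GRCm38.p6, 250 bases before to 50 after each annotated start, 11 windows for the 10 genes. The letters searched were TGATGNAA for the composite element and TGACGTCA for the cAMP response element, on both strands, and no match of one string overlapped a match of the other in these genes. TGATGNAA or its reverse complement was found for 3 of the 10 genes, Chac1, Asns and Trib3, against 3.97% of all 32851 windows. TGACGTCA was found for 1 of the 10, Ppp1r15a, against 1.79% of all windows. The sequences with a match follow, 5′ to 3′ on the gene's own strand, with the match in capitals; they are shown because they carry the letters searched.
Chac1, chr2:119350992-119351241, plus strand, the 250 bases before the start: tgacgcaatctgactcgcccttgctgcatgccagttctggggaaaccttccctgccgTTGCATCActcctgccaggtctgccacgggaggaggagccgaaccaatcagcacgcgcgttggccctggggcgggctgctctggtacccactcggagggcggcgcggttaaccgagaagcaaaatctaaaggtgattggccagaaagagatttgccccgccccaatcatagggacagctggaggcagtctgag
Asns, chr6:7693210-7693269, minus strand, the 60 bases before the start: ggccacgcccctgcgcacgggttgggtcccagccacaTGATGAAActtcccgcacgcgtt
Trib3, chr2:152344028-152344057, minus strand, 30 bases from base 4 of the transcript: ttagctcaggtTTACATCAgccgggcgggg
Ppp1r15a, chr7:45526269-45526328, minus strand, the 60 bases before the start: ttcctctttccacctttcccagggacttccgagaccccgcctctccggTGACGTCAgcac
The match lies at -193 to -186 from the start in Chac1, at -23 to -16 in Asns and at -12 to -5 in Ppp1r15a, and in Trib3 it lies inside the transcribed part, at bases 15 to 22. In Chac1 and Trib3 the composite element is on the strand opposite to the gene. A match is a string of letters and not a shown binding site, and the windows of the other 6 genes held neither string in these bases.

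Levels are log2 values as the authors deposited them, already normalized between arrays, and differences are WIN 18,446 minus control. A probe set with a mean level of at least 5 over the 4 arrays was tested with limma, and one with a Benjamini-Hochberg adjusted p under 0.05 over all 20895 tested probe sets is said to have risen or fallen. Of the members' probe sets, 15 passed that filter, at least 1 for each of the 10 genes. The remaining 2, 1 of Atf4 (1439258_at) and 1 of Cebpb (1427844_a_at), read 2.08 to 2.13 on all arrays, below the 2.22 of the brightest Bacillus control probe set, which has no target in mouse RNA, and no difference is given for them. Levels of different probe sets are not set against each other, because probes differ in brightness.

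The arrays differed in an RNA control and in markers of cell types. The array of WIN 18,446 sample 1 read 6.55 in the 18S ribosomal RNA control at its 5′ end against 8.12 to 8.67 on the other arrays, while the 3′ minus 5′ difference of Gapdh, a sign of RNA quality, lay between 0.72 and 0.83 on all of them. Marker genes of the testis were present: the mean level over 6 tested Sertoli cell genes was 12.27 to 12.68 and over 6 germ cell genes 12.14 to 12.21. Of the Sertoli cell genes 4 fell and 0 rose, with Amh 1.25 log2 units higher and not called (adjusted p = 0.0575); of the germ cell genes 1 fell, and of 5 endothelial genes 1 fell, with endothelial means of 8.43 and 8.64 in controls and 7.65 and 7.60 with WIN 18,446. Of 7 peritubular and stromal genes 1 fell, and of 5 Leydig cell genes 0 were called (limma, 0 rose and 0 fell, with all 5 differences negative). In whole tissue, fewer cells of a type and less RNA per cell cannot be told apart. The part of these shifts in the results that follow was not tested.

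Of the 10 genes 2 rose, Chac1 by 8.44-fold and Atf4 by 1.26-fold in its brightest probe set, and 0 fell. In probe sets this was 2 of 15 higher, against 2.27% of all tested probe sets, and 0 of 15 lower, against 2.91%. The other Atf4 probe set, that of Atf5 and both of Ddit3 had adjusted p-values between 0.05 and 0.10; 6 of 15 were higher at that looser limit, against 4.8% of all. Both WIN 18,446 arrays were above both control arrays in 8 of 15 probe sets, from 5 genes, against 23.8% of all, and below them in 2 of 15, against 29.3%. The median log2 difference was 0.34 over the 15 probe sets and -0.02 over all tested.

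**Figure D1:**
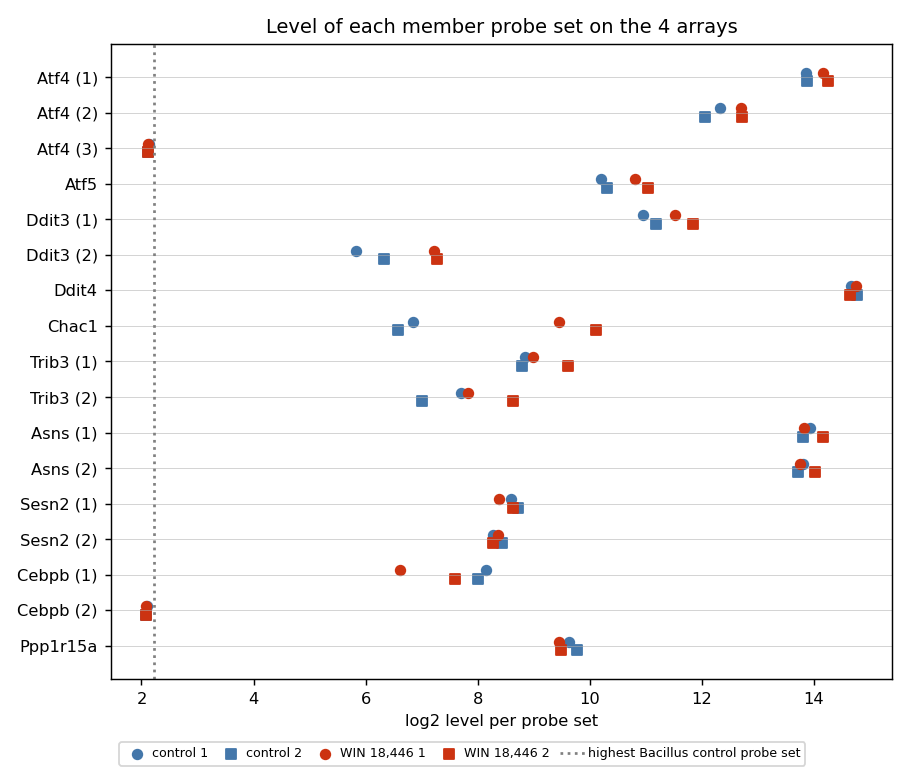
Log2 level of each of the 17 member probe sets on the 4 arrays, with control in blue and WIN 18,446 in red; circles are sample 1 and squares sample 2, and numbers in brackets order the probe sets of a gene by brightness. Chac1 has the widest gap between the groups, while Ddit4, Asns and Sesn2 overlap, and the third Atf4 and the second Cebpb probe set lie left of the dotted line at 2.22.

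Chac1 encodes an enzyme that cleaves glutathione, the main thiol of the cell, and is a known late target of Atf4 and Ddit3. Its gene lies on chromosome 2, from 119351242 to 119354326 in GRCm38.p6, and 1 probe set (1451382_at) measures it. The levels were 6.84 and 6.58 on the control arrays and 9.45 and 10.12 on the WIN 18,446 arrays. The groups were far apart, and the distance between the 2 treated arrays, 0.67, was the larger of the within-group distances. The mean went from 6.71 ± 0.18 (SD, n = 2) to 9.79 ± 0.47, a log2 difference of 3.08 (SE 0.28, 95% interval 2.38 to 3.78, adjusted p = 0.0134), or 8.44-fold with an interval of 5.19 to 13.7. Array by array, the fold ran from 6.12 for WIN 18,446 sample 1 over control 1 to 11.6 for sample 2 over control 2. By size of the increase Chac1 stood 23rd among the 20895 tested probe sets. With any 1 array left out the log2 difference lay between 2.74 and 3.41, but the call was lost without control 1 (adjusted p = 0.276) or control 2 (0.17), when 0 of all probe sets were called, and with no level filter (0.0895). The other settings kept it, with adjusted p-values from 0.00327 to 0.038.

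Atf4, the transcription factor at the centre of the response, lies on chromosome 15 and has 2 probe sets above background. The brighter one (1448135_at) read 13.86 and 13.88 in controls and 14.17 and 14.25 with WIN 18,446. Each group was tight and they did not overlap, so a small shift passed the test: 0.34 log2 units (SE 0.055, adjusted p = 0.0376), 1.26-fold with a 95% interval of 1.15 to 1.39. The call was lost when array medians were set equal (0.30, adjusted p = 0.127), without the variance trend (0.162), without the level filter (0.156), and without control 1 (0.347) or control 2 (0.267). In the other probe set (1438992_x_at), whose suffix marks probes that may also bind other transcripts, levels were 12.33 and 12.06 against 12.69 and 12.72. It pointed the same way by 0.52 log2 units (adjusted p = 0.0651) and was called with a mean level of at least 7 (0.047).

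Atf5, a close relative of Atf4 that is also controlled by translation, lies on chromosome 7. It read 10.21 and 10.32 in controls and 10.81 and 11.04 with WIN 18,446. The groups did not overlap, with a log2 difference of 0.66 (SE 0.13, 95% interval 0.33 to 0.99) that missed the threshold (adjusted p = 0.0568). It came just under 0.05 with a mean level of at least 7 (0.0405), quantile normalization again (0.0434) and robust moderation (0.0475).

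Ddit3 encodes a C/EBP-family factor that Atf4 induces and that is linked to cell death under lasting stress. On chromosome 10, it has 2 probe sets that both separated the groups. The brighter one, 1417516_at, read 10.95 and 11.18 in controls against 11.53 and 11.84, and the dimmer one, 1443897_at, 5.83 and 6.33 against 7.22 and 7.28. Both were higher on each treated array than on either control, yet neither was called. Their log2 differences were 0.62 (SE 0.15, adjusted p = 0.0863) and 1.17 (SE 0.25, adjusted p = 0.0699), with 95% intervals of 0.25 to 1.00 and 0.53 to 1.81. The dimmer probe set was called after quantile normalization was applied again (1.25, adjusted p = 0.0483).

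Cebpb, a C/EBP factor that can pair with Atf4 and is also abundant in myeloid cells, was lower on both treated arrays. Its 1 measured probe set (1418901_at) read 8.16 and 8.003 in controls, and 6.61 and 7.59 with WIN 18,446. The treated arrays differed from each other by 0.98, as much as the groups did (log2 difference -0.98, SE 0.36, adjusted p = 0.2). Without WIN 18,446 sample 2 the difference was -1.47 and was called (adjusted p = 0.0366), and without sample 1 it was -0.49 (0.27). Of 7 neutrophil genes 2 were tested and both fell, S100a8 and S100a9, with a mean level of 12.42 and 12.45 in controls, 5.58 on the array of WIN 18,446 sample 1 and 8.10 on that of sample 2, while Mpo, Elane and Ngp were at background throughout. Of 7 macrophage genes only Lyz2 was tested, at 10.999 and 11.24 against 10.13 and 10.87, and it was not called (adjusted p = 0.249); Cx3cr1 and C1qa were at background. The 1 tested of 5 erythroid genes, Hbb-b2, read 10.53 and 10.38 against 8.62 and 9.45 and was not called either (adjusted p = 0.0618). The part of these cells in the Cebpb values was not tested.

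Among the feedback genes, Trib3 encodes a pseudokinase that Atf4 and Ddit3 induce and that in turn restrains them. One of its probe sets (1456225_x_at) read 8.85 and 8.79 in controls, and 8.99 and 9.61 with WIN 18,446. Its suffix marks probes that may also bind other transcripts. The other (1426065_a_at) read 7.70 and 7.005, and 7.83 and 8.64. In both, WIN 18,446 sample 1 lay only just above the higher control and sample 2 well above it. The log2 differences were 0.48 (SE 0.24, adjusted p = 0.333) and 0.88 (SE 0.37, adjusted p = 0.255), with 95% intervals of -0.14 to 1.09 and -0.07 to 1.83 that reach from a small decrease to 2.13-fold and 3.56-fold. Without WIN 18,446 sample 2 the differences were 0.16 and 0.48, without sample 1 they were 0.79 and 1.28, and without control 2 that of the second was 0.53.

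Ppp1r15a (also called GADD34) encodes the subunit that brings a phosphatase to eIF2 and so ends the response. Its levels were 9.63 and 9.78 in controls and 9.45 and 9.49 with WIN 18,446. Both treated arrays were lower, by 0.23 log2 units on average with an interval of -0.58 to 0.11 (adjusted p = 0.4). That interval includes no change, and its upper end is 1.08-fold. It measures the spread between these arrays only, which may be technical, so it cannot exclude a larger increase.

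The effectors of amino acid supply and growth control differed little. Asns, which makes asparagine and is a textbook Atf4 target, read 13.93 and 13.80 in controls against 13.83 and 14.17 in the brighter probe set. That probe set, by its suffix, may also bind other transcripts. The other probe set gave 13.81 and 13.72 against 13.75 and 14.02. The groups overlapped in both, with log2 differences of 0.13 and 0.12 (adjusted p = 0.595 and 0.57). The upper ends of their 95% intervals were 1.36-fold and 1.30-fold. These intervals measure the spread between these arrays only, which may be technical, so they cannot exclude a larger increase. Without WIN 18,446 sample 2 both differences turned slightly negative (-0.04 and -0.02).

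Ddit4 (also called REDD1), an inhibitor of the growth kinase mTORC1, read nearly the same on all 4 arrays. The values were 14.66 and 14.77 in controls and 14.75 and 14.65 with WIN 18,446, a log2 difference of -0.01 with an interval of -0.17 to 0.14 (adjusted p = 0.92). Sesn2, a leucine-sensing inhibitor of mTORC1, has 2 probe sets annotated to the same sequence record. They read 8.59 and 8.72 against 8.38 and 8.63, and 8.27 and 8.44 against 8.36 and 8.27. Both overlapped between the groups, with differences of -0.15 (adjusted p = 0.681) and -0.04 (0.917), and the sign of the second flipped to 0.0078 under quantile normalization again. The interval of the first was -0.60 to 0.30 and that of the second -0.48 to 0.39.

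**Figure D2:**
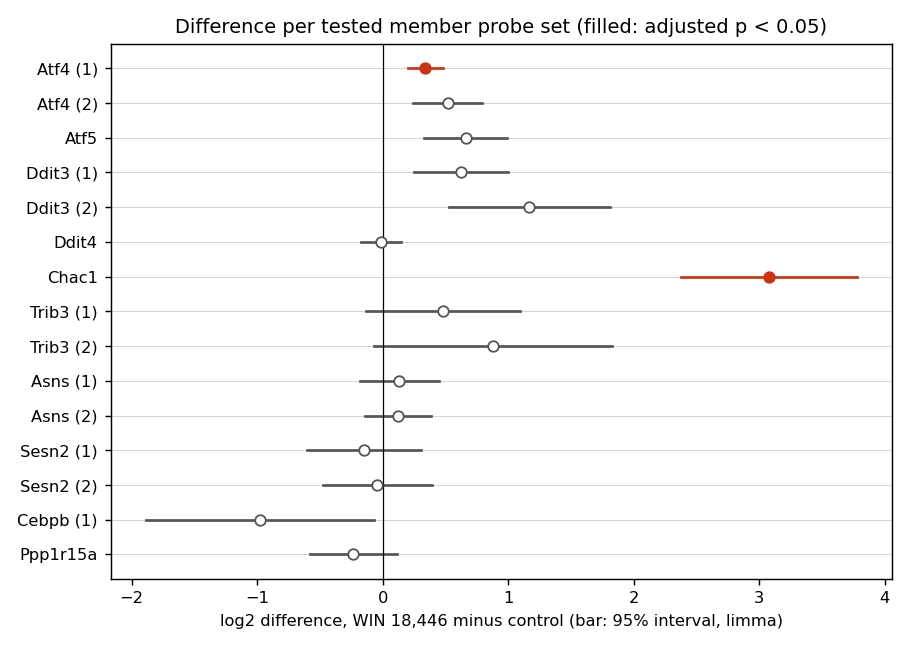
Log2 difference, WIN 18,446 minus control, of the 15 tested member probe sets, with limma's 95% interval as a bar; filled red points have an adjusted p under 0.05. Chac1 stands alone at 3.08, the Atf4, Atf5 and Ddit3 intervals lie above 0 and that of Cebpb below it, and those of Ddit4, Asns, Sesn2, Trib3 and Ppp1r15a cross 0.

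Across the members, the array of WIN 18,446 sample 2 read higher than that of sample 1 in 13 of 15 tested probe sets, against 56.8% of all tested probe sets. The gap was 0.98 for Cebpb, 0.80 and 0.62 for Trib3, 0.67 for Chac1, 0.34 and 0.27 for Asns, and under 0.1 for both Atf4 probe sets. Sample 2 was the lower one for Ddit4 and for 1 Sesn2 probe set, by 0.09 each. Control 2 was above control 1 in 8 of 15, against 47.5% of all. In 7 of 15 probe sets the 2 treated arrays lay at least slightly farther apart than the groups did: both of Asns, both of Sesn2, the brighter one of Trib3, and those of Ddit4 and Cebpb. The share of all tested probe sets with such a gap was not counted, so these 7 are given as a description.

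The wider pathway was read through 6 gene lists, each gene by its brightest tested probe set; over all 10970 genes so read, 2.94% rose, 3.46% fell and the median log2 difference was -0.02. These lists were chosen with earlier results of these data known. Other known targets of Atf4 and Ddit3 had the highest median of the 6. Of 21 tested among 26 listed, 7 rose, 0 fell and 14 were not called, with 19 of 21 differences positive and a median of 0.37. How many of all genes had a positive difference was not counted. Shmt2 and Mthfd2, enzymes of the mitochondrial folate cycle, rose by 1.07 (adjusted p = 0.0115) and 0.65 (0.0242). Aldh1l2, another enzyme of that cycle, rose from 5.44 to 7.50, which is 4.16-fold (adjusted p = 0.0238). Aldh18a1, of proline synthesis, rose by 0.67 (0.0168), Pck2, a mitochondrial enzyme of gluconeogenesis, by 0.75 (0.0262) and Slc3a2, the shared heavy chain of several amino acid transporters, by 0.50 (0.0196). The seventh was Cars, the cysteinyl-tRNA synthetase, at 1.68 (0.0275), which is named although it falls outside the rule for named genes. By their suffix the probe sets of Shmt2 and Aldh18a1 may also bind other transcripts. Psat1 (0.11), Slc7a5 (0.20) and Slc38a2 (0.11), further listed targets named after their values were seen, had small differences too (adjusted p from 0.295 to 0.559). Slc7a11, the cystine transporter subunit, and Fgf21 were at background on all arrays. Without control 1 or control 2, 0 genes of this list rose (limma; 9 and 10 were higher at an unadjusted p under 0.05), nor did any gene of the other lists.

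Of the C/EBP and ATF relatives 2 rose among 15 listed as paralogs or related factors, of which 0 fell and 13 were not called (median 0.06); 1 rose without the variance trend and 0 without the level filter. Atf3, a stress-induced ATF factor, read 7.97 and 7.94 in controls and 9.08 and 9.58 with WIN 18,446, a log2 difference of 1.38 (SE 0.22, adjusted p = 0.0376). Cebpa, a C/EBP factor of differentiation, read 11.996 and 12.17 in controls against 13.29 and 13.40. Its log2 difference was 1.26 (SE 0.09, adjusted p = 0.0099). The difference of Cebpb was negative and was not called. Trib1, a relative of Trib3, was at -1.02 (adjusted p = 0.0827) and Jdp2, an AP-1 family repressor, at 0.64 (0.0875), and neither was called.

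The tested kinases and translation factors that start the response did not pass the test. Eif2s1, a gene of eIF2 itself and 1 of the 17 listed, was not tested. Of 16 tested genes for eIF2 kinases, eIF2 and eIF2B subunits and their regulators, limma called 0 higher and 0 lower, with a median of -0.01. At an unadjusted p under 0.05, 0 were higher and 2 lower, where 2073 of all 20895 tested probe sets were higher and 2525 lower. Eif2ak3, the kinase PERK of the endoplasmic reticulum, differed by 0.29 (adjusted p = 0.246), and Ppp1r15b, the constitutive partner of Ppp1r15a, by 0.15 (0.238). Gcn1, an activator of the amino acid sensing kinase, was at -0.35 (0.0963), and Eif2b1 at -0.28 (0.212). Activation of these kinases occurs by phosphorylation, which RNA levels do not show.

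The Xbp1 and Atf6 arms of the unfolded protein response share endoplasmic reticulum stress as a trigger with PERK. Of 16 genes, 0 were called (limma, 6 higher and 0 lower at an unadjusted p under 0.05). Of all 20895 tested probe sets, 2073 were higher and 2525 lower at that limit. In this list 14 of 16 differences were positive, with a median of 0.20 against -0.02 over all genes. The share of all genes with a positive difference was not counted. Sdf2l1, an endoplasmic reticulum chaperone cofactor, read 7.31 and 8.04 in controls against 8.86 and 9.29, a difference of 1.40 (adjusted p = 0.0738). The chaperones Calr and Hsp90b1 differed by 0.33 (0.0532) and 0.31 (0.0791), and Xbp1 by 0.35 (0.111). Hspa5, the abundant chaperone BiP, named after its value was seen, differed by 0.14 (0.436). By their suffix the probe sets of Calr and Hspa5 may also bind other transcripts.

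Around Chac1's own substrate, 11 genes of glutathione synthesis and breakdown were tested and limma called 0, with a median of 0.06. At an unadjusted p under 0.05, 1 was higher and 1 lower, where 2073 of all 20895 tested probe sets were higher and 2525 lower. Gclc, the catalytic subunit of the first step of glutathione synthesis, differed by 0.41 (adjusted p = 0.147). Ggct, a cyclotransferase that acts on gamma-glutamyl amino acids, read 11.44 and 11.34 against 10.50 and 10.89, a difference of -0.70 (0.0748), and Oplah, which hydrolyses the pyroglutamate that Chac1 and Ggct release, differed by -0.36 (0.241). Ggt5, a transferase that acts on glutathione outside the cell, differed by -0.44 (0.353).

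Of 18 genes of mTORC1 and its inputs, the pathway that Ddit4 and Sesn2 restrain, 1 rose, 0 fell and 17 were not called (median -0.02). The one that rose was Eif4ebp1, the translation repressor that mTORC1 inactivates and a known Atf4 target, at 0.57 (SE 0.10, adjusted p = 0.0407), a call lost when array medians were set equal, without the variance trend and without the level filter. Mlst8 (-0.82), Akt1s1 (-0.34) and Rheb (0.20) were not called (adjusted p from 0.152 to 0.189). At an unadjusted p under 0.05 (limma), 3 of the 18 genes were higher and 5 lower. Of all 20895 tested probe sets, 2073 were higher and 2525 lower at that limit. Nprl3, named after its values were seen, read 9.64 on the array of WIN 18,446 sample 1 and 5.16 to 5.35 on the other 3, so that its difference of 2.09 rests on a single array (adjusted p = 0.463).

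**Figure D3:**
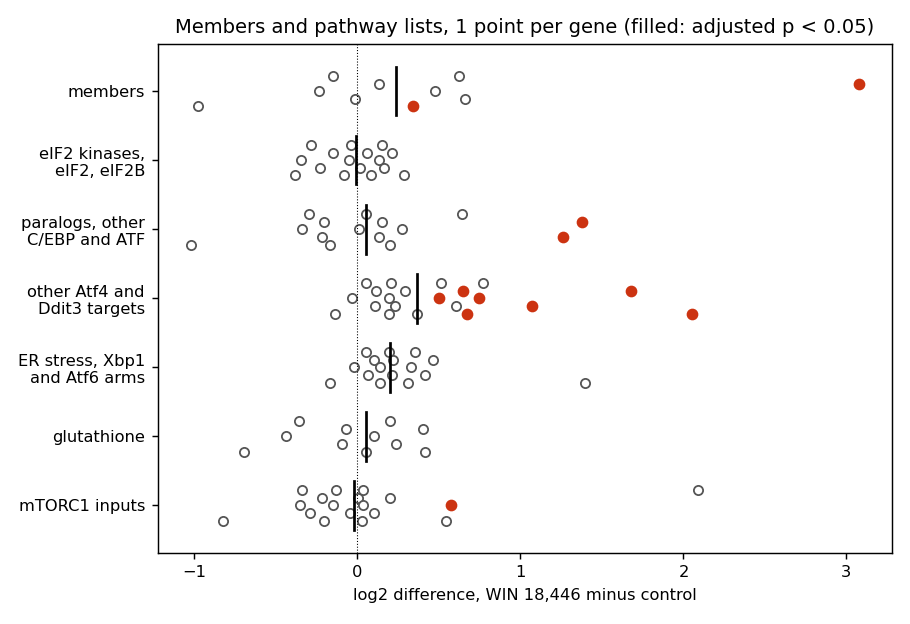
Log2 difference, WIN 18,446 minus control, of the 10 members and of the tested genes of 6 pathway lists, 1 point per gene by its brightest tested probe set, filled red where the adjusted p is under 0.05; black bars are medians and vertical scatter has no meaning. The median is 0.24 for the members, 0.37 for other Atf4 and Ddit3 targets and 0.20 for the endoplasmic reticulum list, and between -0.02 and 0.06 for the other lists.

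The genes whose profile over the 4 arrays was nearest to that of Chac1, by Euclidean distance after each gene's own mean was taken off, were Ang (0.388), Tnnc1 (0.446), Gper1 (0.524), Sfrp4 (0.545) and Slc7a3 (0.553). Ang, a secreted ribonuclease, read 5.63 and 5.08 in controls and 7.75 and 8.45 with WIN 18,446, so its 2 treated arrays also lay apart, by about as much as those of Chac1. Its probe set may bind more than 1 transcript by its suffix, as may that of Gper1, a membrane estrogen receptor. Tnnc1, a troponin subunit, read 4.32 and 4.37 against 7.34 and 7.45, and Sfrp4, a secreted Wnt inhibitor, 4.86 and 5.27 against 8.04 and 8.33. Slc7a3, a transporter of cationic amino acids, read 4.71 and 4.78 against 7.19 and 7.55. These genes were chosen by that likeness, over 4 arrays of 2 groups, and Tnnc1 and Slc7a3 passed the level filter only through the WIN 18,446 arrays, so their values are given as a description.

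**Figure D4:**
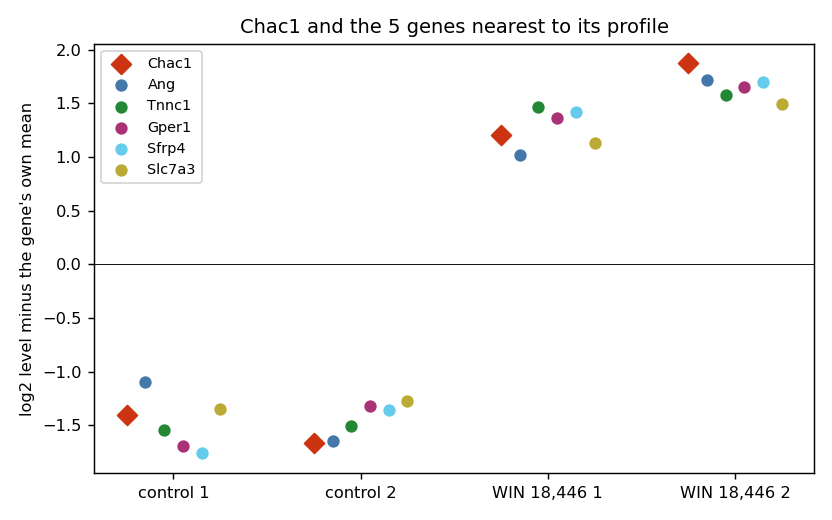
Log2 level minus the gene's own mean over the 4 arrays, for Chac1 (red diamonds) and the 5 genes nearest to it; each column is 1 array and points are spread sideways only for legibility. Each of the 6 genes is below its mean on both control arrays and above it on both WIN 18,446 arrays, and Chac1 and Ang have the widest gap between the 2 treated arrays.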

How the data were processed

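Total RNA of cultured testes was amplified to cDNA and hybridised to 1 array per sample, per the labels' protocols. The deposited table holds log2 levels for 45101 probe sets on 4 arrays, with values from 1.74 to 16.2 and column medians of 3.72 to 3.83, not centred per probe set; the log2 scale was read from these values. RMA and GCRMA are both named, per the submitters' processing notes, and which of them gave the table is not given in the sources used here. Left out were the 64 control probe sets. Gene symbols were taken from the platform annotation at GEO and positions from RefSeq (GRCm38.p6). Of the remaining probe sets, the 20895 (46.4%) with a mean level of at least 5 were fitted with limma 3.58.1 in R 4.3.3 (lmFit, eBayes with a variance trend, 2 residual and 3.19 prior degrees of freedom), two-sided, with adjustment over all of them; the fit was tested on simulated data. An exact permutation test over 2 arrays against 2 cannot reach 0.05 and was not run. The members and lists were chosen with earlier results of these data known. Named genes are all members, up to 4 genes of each pathway list by smallest p (6 where more were called), and the 5 genes nearest to Chac1 in profile. The alternatives were other level filters, normalizations, variance models and thresholds, a block for the replicate number, the loss of each array in turn and probe sets averaged per gene.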

Additional observations from a re-analysis of the deposited data

How the results depend on the processing

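Of all probe sets, 475 rose and 608 fell, and of the members' 15, 2 rose and 0 fell (limma). At an unadjusted p under 0.05, 2073 of all 20895 were higher and 2525 lower. Of the members' 15, 6 were higher at that limit and 1, Cebpb, lower. With no level filter the counts called were 0 (2300 at an unadjusted p under 0.05), 3 and 0 for the members' increases (6 unadjusted). Without the variance trend they were 127, 245 and 1. At an adjusted p under 0.10 they were 1002, 1214 and 6. Member increases numbered 4 with a mean level of at least 7, 4 after quantile normalization again and 1 with equal array medians. Over all probe sets tested the increases were 584 of 18321, 631 of 20891 and 491 of 20895 in these settings. The dimmer Ddit3 probe set, with a mean level of 6.67, was not tested at the filter of 7. With 1 array left out, increases ranged from 0 to 480 and decreases from 0 to 918, and member increases from 0 to 2 and decreases from 0 to 1; without control 1 or control 2 every one of these counts was 0, with 1134 and 1321 probe sets, or 1382 and 1438, at an unadjusted p under 0.05. A group left with a lone array borrows its spread from the group that keeps both. The labels give same-numbered samples a number in common and do not say whether they were paired. Their deviations from the group means correlated at 0.014 over probe sets. With 2 arrays per group that value cannot settle whether they were paired. With the replicate number as a block, 5 member probe sets rose, of Chac1, Atf4, Atf5 and Ddit3 (the brighter one), as did 3 genes of the Xbp1 and Atf6 list. Calls grew over the whole table in that fit, to 703 probe sets higher and 764 lower of 20895.

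Differences changed sign only where they were near 0 and not called. That of the dimmer Sesn2 probe set was 0.0078 after quantile normalization again, 0.041 without control 2 and 0.0031 without WIN 18,446 sample 2. Ddit4 was at 0.039 without control 2 and 0.033 without WIN 18,446 sample 2, where the Asns differences were -0.038 and -0.019. With each array left out in turn, that Sesn2 difference ranged from -0.13 to 0.041, that of Ddit4 from -0.068 to 0.039, and those of Asns from -0.038 to 0.30 and from -0.019 to 0.25. With a gene's probe sets averaged in place of the brightest, Ddit3 was at 0.90, and Atf4 at 0.28 and Cebpb at -0.49, both of which include a probe set at background. In the list of other Atf4 and Ddit3 targets, between 0 and 8 genes rose with 1 array left out, 2 without the variance trend and 0 without the level filter. The cause of these changes was not tested. Depth has no counterpart here; signal over background limits the 2 probe sets at background, and 2 arrays per group limit the rest.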
